A study of Mus musculus with 2 samples.

Results

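Mfap4/Angptl1-type mesenchymal cells are cells of the embryonic mouse trunk skin with RNA of matrix genes and more RNA of 5 genes, Mfap4, Angptl1, C1qtnf3, Sfrp4 and Ogn (their sum is called B), than of Crabp1, Egfl6, Pth1r, Irx1 and Apela (sum A). They were chosen by UMI counts from the cells with at least 100 genes and at most 10% mitochondrial UMIs. A mesenchymal cell was selected on at least 20 UMIs of Col1a1, Col3a1, Lum and Dcn, at least 5 of Lum and Dcn, and at most 10 of Dct, Pmel and Mlana. A member also had at most 3 UMIs of Mfap5 and Clec3b, and B above A. The rule took 82 of 2368 cells, 23 of 1540 in the WT library and 59 of 828 in the KO library. Mesenchymal cells with over 3 UMIs of Mfap5 and Clec3b are called Mfap5-type cells (33 WT and 76 KO), whatever their A and B. Those with at most 3 and with A above B are called Crabp1-type cells (151 WT and 102 KO).

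The cells came from E15.5 embryos in which Cre under the Tyr promoter (TyrCreB) switched on tdTomato from the Rosa26 locus, and tdTomato-positive cells of trunk skin were sorted and sequenced on the 10X platform. The WT embryo carried Hira wt/wt and the KO embryo Hira fl/fl, which removes HIRA, a chaperone that deposits histone H3.3, from the cells with Cre. Both genotypes carried the reporter, and the labels give a mixed strain close to C57BL/6J. Each genotype had 1 library. Tyr drives Cre in melanoblasts and also in some lineages that make no pigment. Dermal fibroblasts form layers that differ in origin and fate: the upper dermis supports hair follicles, while deeper cells make the reticular dermis, fascia and fat. Many fetal mesenchymal cells express imprinted genes that act on growth.

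Xist gave 258 UMIs in WT members and 3 in KO members, and the Y-linked genes Ddx3y, Eif2s3y, Uty and Kdm5d gave 0 UMIs in WT and 19, 11, 5 and 1 in KO members. The WT embryo was thus female and the KO embryo male, and sex and genotype cannot be told apart here. Members held a median of 4564 UMIs and 1700 genes per cell in WT and 5195 UMIs and 1817 genes in KO, and their summed UMIs were 131211 and 353824. The libraries shared 0 barcodes. Hira gave 4 UMIs in WT members (30.5 CPM, counts scaled to the summed UMIs of the group), 3 of these in 1 cell, and 3 UMIs in KO members (8.48 CPM), with a log2 KO to WT ratio of -1.85 [-4.62 to 0.72]. Brackets here and later hold 95% intervals, which cover counting error only and not the spread between embryos. In pigment cells, which should carry Cre, the WT level of Hira was 12.7 CPM and the KO level 2.75 CPM, and in Crabp1-type cells the levels were 9.14 and 9.13 CPM. tdTomato gave 0 UMIs in WT members, which allows up to 22.9 CPM, and 5 UMIs in 5 KO members (14.1 CPM), while Cre gave 2 and 1 UMIs. At this depth neither Hira nor the reporter could be read cell by cell, so how many KO members had lost Hira was not measured.

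Members made up 1.49% [0.949 to 2.23] of the WT cells and 7.13% [5.47 to 9.10] of the KO cells. The other 2 mesenchymal groups also took larger shares of the KO library, 9.81% WT and 12.3% KO for Crabp1-type cells and 2.14% and 9.18% for Mfap5-type cells. Among mesenchymal cells alone the members' shares were 11.005% [7.11 to 16.1] of 209 in WT and 24.5% [19.2 to 30.4] of 241 in KO. Of members and Crabp1-type cells together, members were 13.2% [8.57 to 19.2] and 36.6% [29.2 to 44.6]. Of mesenchymal cells, Mfap5-type cells were 15.8% in WT and 31.5% in KO, and Crabp1-type cells 72.2% and 42.3%. Members and Mfap5-type cells thus both took a larger part of the mesenchymal cells in KO, and Crabp1-type cells a smaller one. Beside Mfap5-type cells alone, members numbered 23 to 33 in WT and 59 to 76 in KO, and no share was taken of these 2 groups. The share of members was larger in KO for each total it was taken from. With 1 embryo per genotype, the part of sorting, sex and genotype in it was not tested.

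**Figure D1:**
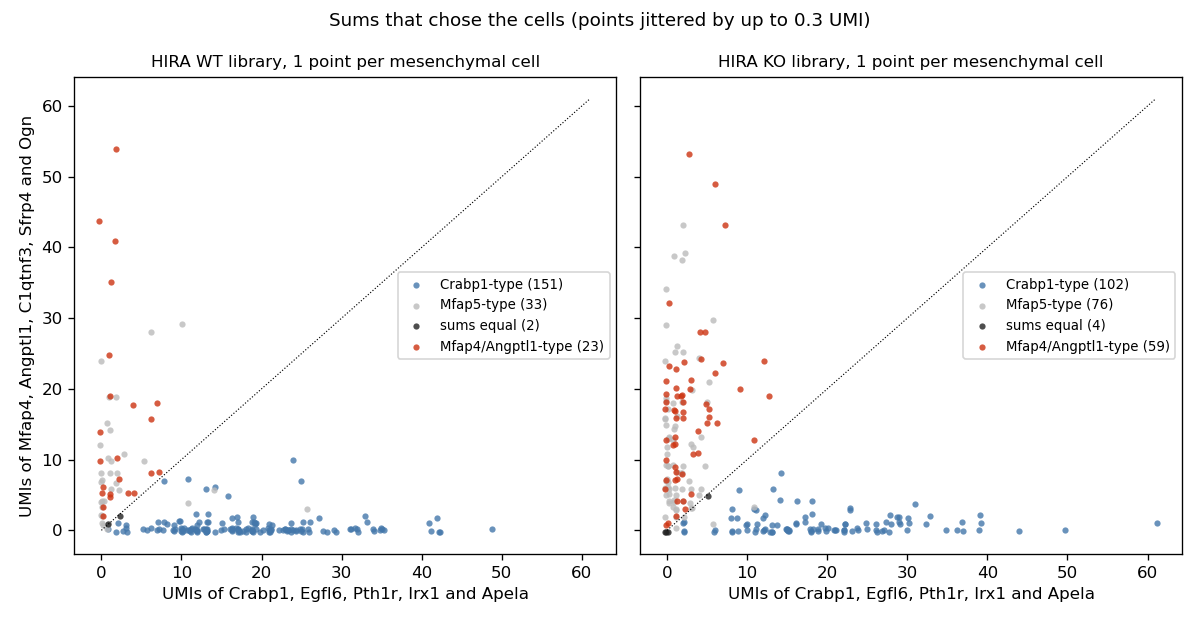
Each point is 1 mesenchymal cell, with UMIs of sum A (x) and sum B (y), in the WT library (left) and the KO library (right), colored by the group the rule gave it. Members lie above the diagonal with a median B of 10 in WT and 17 in KO, and Crabp1-type cells lie along the x axis with a median A of 17 and 18.

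The plot of the 2 sums per cell shows members and Crabp1-type cells on either side of the diagonal. B was above A by 1 in 2 WT and 4 KO members, by 1 to 3 in 6 and 8, and by at least 10 in 11 and 40, and A was above B by 1 in 3 WT and 2 KO Crabp1-type cells. Among mesenchymal cells with at most 3 UMIs of Mfap5 and Clec3b, the sums were equal in 2 WT and 4 KO cells, which belong to no group. Median sums in members were 10 (B) and 1 (A) in WT and 17 and 2 in KO, whereas in Crabp1-type cells the median B was 0 in both libraries. At the border to Mfap5-type cells the groups overlap in B, which was above A in 28 of 33 WT and 70 of 76 KO Mfap5-type cells, and Mfap5 and Clec3b stood at 3, the limit, in 4 WT and 10 KO members and at 0 in 12 and 27. With 15 to 19 matrix UMIs, just below the matrix limit, 1 WT and 8 KO cells had B above A, and 1 WT and 0 KO members had 20 to 24.

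The 5 genes of sum B chose the members, so their presence in members is part of the choice, while macrophages and Mfap5-type cells were chosen without B. Mfap4, whose product binds elastic microfibrils, was seen in all 23 WT and all 59 KO members, and after thinning to 2000 UMIs per cell in 91.3% and 89.8%. Angptl1, which codes for a secreted angiopoietin-like protein, was seen in 12 of 23 and 43 of 59 members (52.2% and 72.9%, thinned 26.1% and 49.2%). Ogn, which codes for the small leucine-rich proteoglycan osteoglycin, was seen in 14 of 23 and 51 of 59 (60.9% and 86.4%, thinned 39.1% and 62.7%). The other 2 genes of the sum were seen less often: C1qtnf3, coding for a secreted protein with a C1q domain, in 7 of 23 and 29 of 59 members (30.4% and 49.2%, thinned 30.4% and 30.5%), and Sfrp4, coding for a secreted Wnt antagonist, in 0 of 23 and 21 of 59 (0% and 35.6%, thinned 0% and 27.1%). In macrophages, which should not make these proteins and held medians of 5571.5 UMIs in WT and 6901 in KO, Mfap4 was seen in 3 of 98 and 3 of 17 cells (3.06% and 17.6%, thinned 0% and 5.88%), Angptl1 in 1 and 0, Ogn in 0 and 2, and C1qtnf3 and Sfrp4 in 0 and 0. In Mfap5-type cells, by contrast, RNA of these genes was common: Angptl1 stood at 340.5 and 302 CPM against 168 and 299.6 CPM in members, and Ogn at 507 and 427 against 297 and 554 CPM. Mfap4 stood at 1043 and 878 CPM there against 1982 and 1407 CPM, C1qtnf3 at 203 and 128 against 320.1 and 283 CPM, and Sfrp4 at 29.0 and 94.7 against 0 UMIs and 260 CPM. Angptl1 and Ogn thus do not set members apart from these cells. At least 4 of the 5 genes were seen together in 5 WT and 29 KO members, and only 1 of them in 6 and 2.

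How far each gene of the sums follows the rest was read by choosing the cells with the other 9 genes. Mfap4 then stood at 2459 against 174 CPM in WT (log2 3.82 [3.49 to 4.15]) in cells with the larger B against those with the larger A, and at 1571 against 174 CPM in KO (log2 3.18 [2.88 to 3.48]). Without Mfap4, only 12 WT and 46 KO cells had the larger B, whereas the full rule took 23 and 59. Angptl1 gave 168 against 2.61 CPM in WT (log2 6.00 [3.98 to 9.14]) and 297 against 4.52 CPM in KO (log2 6.04 [4.45 to 8.34]). For C1qtnf3 the values were 320.1 against 1.31 CPM in WT (log2 7.94 [5.38 to 13.27]) and 290.2 against 11.99 CPM in KO (log2 4.60 [3.56 to 5.85]). Ogn, which lies near Aspn on chromosome 13, gave 286 against 16.7 CPM in WT (log2 4.10 [3.14 to 5.14]) and 537 against 65.9 CPM in KO (log2 3.03 [2.55 to 3.54]). Sfrp4 had 0 UMIs in both WT groups and gave 260 against 4.56 CPM in KO (log2 5.83 [4.24 to 8.14]). On the other side, Crabp1, which codes for a retinoic acid binding protein, gave 446 against 2265 CPM in WT (log2 -2.35 [-2.71 to -1.9995]) and 182 against 1924 CPM in KO (log2 -3.40 [-3.76 to -3.06]). Egfl6, Pth1r and Irx1 also stood lower, with log2 values of -2.28, -2.88 and -2.04 in WT and -1.34, -2.20 and -2.07 in KO, and Apela gave 16.96 against 102 CPM in KO and 0 UMIs against 149.8 CPM in WT. The 10 genes had been put in the rule with these data known, so that they go together is part of the choice.

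Mesenchymal markers outside the rule were read next, none of which was used to choose the cells. Members had to hold at least 20 matrix UMIs and macrophages under 20, so the levels in both follow in part from the choice. All 12 of 12 genes of this list were seen in each library, with a summed 9328 [8813 to 9866] CPM in WT and 11664 [11311 to 12025] CPM in KO members, and Col1a2, a chain of type I collagen, was the most abundant in both. The list gave 7939.6 and 9055 CPM in Crabp1-type cells and 95.3 and 322 CPM in macrophages. Without cells that held at least 10 UMIs of another cell type's markers, it gave 12786 and 13190 CPM in members. Mfap5-type cells then gave 12169 and 12969 CPM, so this list did not set members apart from them. Genes that define muscle, cartilage and bone were almost absent from members. Of the muscle list, 0 of 6 genes were seen in WT and 2 of 6 in KO, with Des leading at 21 UMIs in 17 cells, and Myod1, Myf5, Myog and Pax7 had 0 UMIs in both. The cartilage list gave 1 of 6 genes and 30.5 CPM in WT and 2 of 6 and 22.6 CPM in KO, all in WT from Sox9, and Acan and Col2a1 were at 0. The bone list gave 1 of 6 genes at 15.2 CPM (Alpl) and 1 of 6 at 11.3 CPM (Runx2). Perineurial genes summed to 7.62 CPM (1 of 6) and 53.7 CPM (6 of 6, led by Slc2a1), endothelial genes to 30.5 (2 of 5) and 48.0 CPM (3 of 5, led by Kdr), and pericyte genes to 45.7 (4 of 6) and 48.0 CPM (5 of 6), led by Kcnj8 in both.

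Tendon genes were the 1 list of another connective tissue with more than traces. Summed over the 5 genes, they stood at 419 [316 to 546] CPM in WT members (4 of 5 seen, Kera at 0) and 263 [212 to 322] CPM in KO members (5 of 5), against 15.7 and 18.3 CPM in Crabp1-type cells and 1.67 and 0 in macrophages. In WT the list was led by Tnmd, which codes for tenomodulin, a membrane protein of tendons, with 46 UMIs in 8 cells, 21 of them in 1 cell. In KO it was led by Thbs4, a thrombospondin, with 47 UMIs in 15 cells. Only 2 WT and 8 KO members had at least 5 tendon UMIs. The 2 WT cells held 21 and 26 of them and each other WT member at most 3, so these 2 cells carried most of the WT value. The cell with 21 stood at the limits of the rule, with 20 matrix UMIs and 5 of Lum and Dcn. In KO the largest count was 28, in 1 cell. Most members thus had under 5 tendon UMIs. Without the cells rich in other cells' markers the list gave 661 and 309.6 CPM in members. It then gave 101.6 and 94.6 CPM in Mfap5-type cells and 16.2 and 20.9 CPM in Crabp1-type cells. Tendon RNA was thus also present in Mfap5-type cells, at a lower level. Whether the members with more tendon UMIs are tendon cells, or cells of the fascia near them, was not tested.

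RNA of unrelated cell types was present in members, for some lists in few cells and for others in most. The melanoblast list gave 168 CPM in WT (5 of 6 genes, Kit at 0) and 59.4 CPM in KO (6 of 6), led by Pmel, a gene of the rule. Mast cell genes gave 99.1 (3 of 4, Cpa3, with Fcer1a at 0) and 16.96 CPM (2 of 4, Cma1). These 2 lists each stayed under 200 CPM in members. Glial genes were seen in 5 WT and 15 KO members, with 20 UMIs in 1 KO cell. Macrophage genes stood at 53.3 CPM (5 of 6, Tyrobp, with Aif1 at 0) and 279.8 CPM (6 of 6, C1qb), with 84 of the 99 KO UMIs in 1 cell. Adipocyte genes stood at 2911 CPM in WT (6 of 6, Fabp4) and 181 CPM in KO (5 of 6, Fabp4), with 328 of the 382 WT UMIs in the deepest cell, which held 25290 UMIs, 19.3% of all WT member UMIs. Keratinocyte genes stood at 15.2 CPM (1 of 6, Krt10) and 879 CPM (6 of 6, Krt14), with 172 of 311 KO UMIs in 1 cell and the rest spread, so that 2 WT and 52 KO members had at least 1. Erythroid genes gave 68.6 CPM (3 of 6, Hba-a1) and 961 CPM (3 of 6, Hbb-bs), against 199 and 1088 CPM in macrophages, and were seen in 7 WT and 55 KO members, with Hbb-y, Hbb-bh1 and Hba-x at 0. At least 10 UMIs of a melanoblast, glial, macrophage, mast, keratinocyte, endothelial, pericyte, muscle or adipocyte list lay in 4 WT and 5 KO members, out of 23 and 59, and these held 36.6% and 18.7% of the members' UMIs. The erythroid list had no part in this, although 0 WT and 8 KO members had at least 10 of its UMIs, and without the 9 cells it stood at 60.1 and 967 CPM and the keratinocyte list at 24.03 and 389.6 CPM. Values without these 9 cells are given beside many values of the comparison of KO with WT. Whether they are doublets was not tested, and for the members' other genes the part of free RNA was not tested.

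Members were first set against the Crabp1-type cells of the same library, leaving out the genes of the rule. Of the 1212 genes read in WT (at least 100 UMIs over the 2 groups), 36 (2.97%) were at least 2-fold higher and 71 (5.86%) at least 2-fold lower in members, with a median log2 ratio of -0.03 over all genes read. In KO, 54 (4.17%) of 1294 genes were higher and 68 (5.26%) lower, with a median of -0.13. Of 1143 genes read in both libraries, 21 (1.84%) were higher and 34 (2.97%) lower in each, 0 were 2-fold in opposite directions, and 727 had the same sign. These 21 and 34 genes were part of 33 higher and 58 lower genes in WT among those read in both, so most of the WT genes had a match in the other embryo. The plot of ratios to Crabp1-type cells shows the genes with the largest differences.

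**Figure D2:**
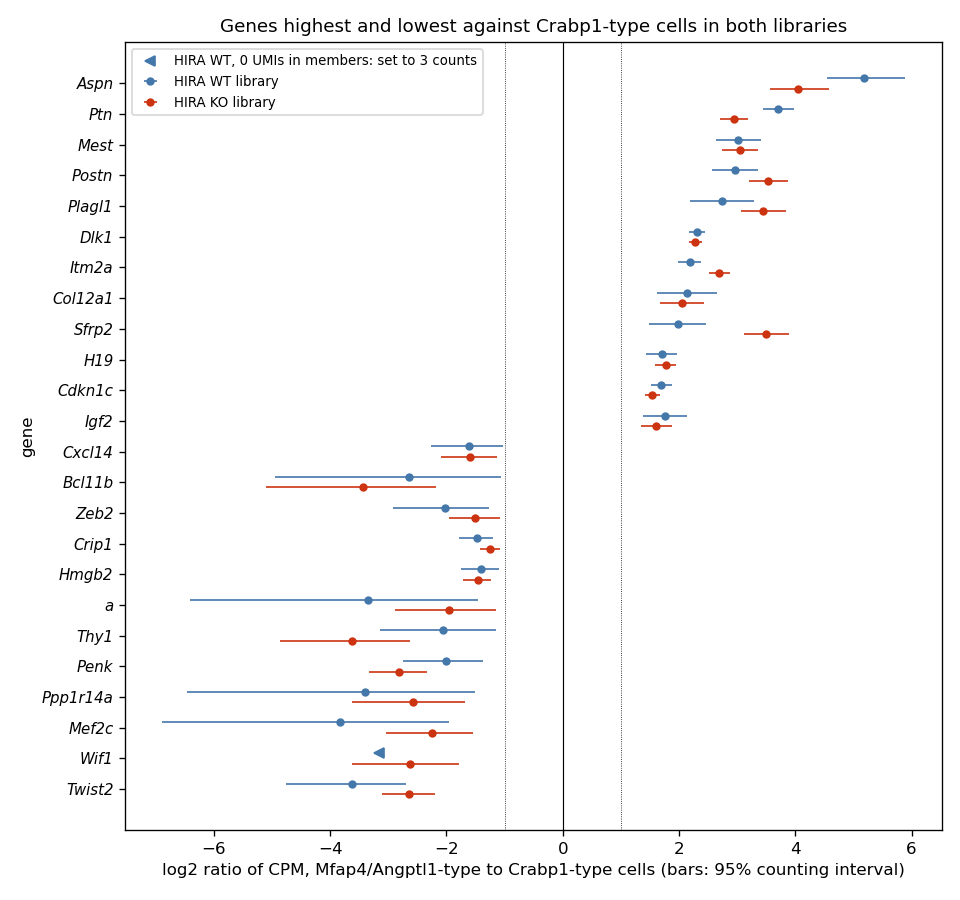
Log2 ratio of CPM in members to Crabp1-type cells (x) for the 12 genes highest and 12 lowest by the chosen measure (y), in the WT (blue) and KO (red) library, with bars for 95% counting intervals, dotted lines at 2-fold, and a triangle for a bound (Wif1, 0 UMIs in WT members). Aspn lies farthest to the right, at 5.18 in WT and 4.05 in KO.

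Aspn, Postn, Ptn, Itm2a and Col12a1 were among the genes highest in members, beside imprinted genes given further below. Aspn, which codes for asporin, a small leucine-rich proteoglycan that binds collagen, stood at 1089.8 CPM in WT members and 933 CPM in KO members against 30.04 and 56.3 CPM in Crabp1-type cells (log2 5.18 [4.54 to 5.88] and 4.05 [3.56 to 4.58]). Postn, which codes for periostin, a matricellular protein made by fibroblasts in the periosteum, fascia and wounds, stood at 976 and 1552 CPM against 125 and 134 CPM (log2 2.96 [2.57 to 3.36] and 3.54 [3.21 to 3.88]) in the same order. Ptn, which codes for the heparin-binding growth factor pleiotrophin, stood at 2850.4 and 2173 CPM against 218 and 283 CPM (log2 3.71 [3.44 to 3.98] and 2.94 [2.71 to 3.18]). These genes were seen in most members: Aspn in 91.3% of WT and 84.7% of KO cells (thinned 78.3% and 71.2%) against 0% and 17.6% of macrophages (thinned 0% and 11.8%), and Postn in 95.7% and 93.2% (thinned 78.3% and 88.1%) against 10.2% and 29.4% (thinned 2.06% and 0%). Itm2a, which codes for a membrane protein found in developing cartilage and muscle, stood at 2652 and 3338 CPM against 585 and 516 CPM (log2 2.18 [1.97 to 2.39] and 2.69 [2.52 to 2.87]). Col12a1 codes for the collagen XII chain, which sits on the surface of collagen fibrils in fascia, tendon and dermis, and stood at 442 and 559.6 CPM against 101 and 135 CPM (log2 2.14 [1.62 to 2.65] and 2.05 [1.68 to 2.43]).

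Sfrp2, which codes for a secreted frizzled-related protein that modulates Wnt signals, stood at 465 CPM in WT members and 1136 CPM in KO members against 118 and 100.4 CPM in Crabp1-type cells (log2 1.98 [1.49 to 2.47] and 3.50 [3.12 to 3.90]). Its relative Sfrp1, with fewer UMIs, stood at 68.6 and 98.9 CPM against 6.53 and 6.08 CPM (log2 3.39 [1.66 to 5.32] and 4.02 [2.54 to 5.98]). Fibronectin (Fn1) stood at 442 and 619 CPM against 136 and 183 CPM (log2 1.70 [1.21 to 2.18] and 1.76 [1.43 to 2.10]), biglycan (Bgn) at 686 and 749 CPM against 293 and 298 CPM (log2 1.23 [0.86 to 1.59] and 1.33 [1.06 to 1.60]), and Lox, the gene of lysyl oxidase that links collagen and elastin chains, at 282 and 274 CPM against 106 and 97.3 CPM (log2 1.41 [0.81 to 1.99] and 1.49 [1.02 to 1.97]). The rest of the 21 genes outside the imprinted ones were Nfib and, named after their values were seen, Vcan, Cthrc1, Mdk and Agtr2. Nfib, a transcription factor gene, stood at 366 and 441 CPM against 161 and 157 CPM (log2 1.19 [0.67 to 1.68] and 1.49 [1.12 to 1.87]).

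Collagen genes were higher in members by less than 2-fold when summed. The fibrillar collagens outside the rule gave 5312 [4925 to 5721] CPM in WT and 7439 [7157 to 7728] CPM in KO members against 4700 [4548 to 4856] and 5639 [5459 to 5824] CPM in Crabp1-type cells, and the other collagens 2523 [2258 to 2809.6] and 3505 [3312 to 3705] CPM against 2084 [1983 to 2188] and 2487 [2367 to 2610.1] CPM. Without the cells rich in other cells' markers the fibrillar collagens gave 7475 and 8414 against 4816 and 5957 CPM. Gene by gene, 3 fibrillar collagens were read in each library and 0 were 2-fold apart, with medians of 0.15 and 0.33, and Col1a2, a chain of type I collagen, stood at 4603 and 6158 CPM against 4138 and 4908 CPM (log2 0.15 and 0.33) in WT and KO. Col11a1, which codes for a chain of the thin fibrils of cartilage and young connective tissue, was an exception with 7 UMIs in WT and 70 in KO members, too few to be counted as read in WT, at 53.3 and 198 CPM against 10.5 and 4.56 CPM (log2 2.35 [0.66 to 4.01] and 5.44 [3.83 to 7.75]). Of other collagens 5 and 6 were read, 1 and 2 were higher and 0 lower (of all genes read 2.97% and 4.17% were higher), with medians of 0.17 and 0.30. The collagen processing enzymes had medians of 0.24 and 0.03 (7 WT and 8 KO read), and P4ha2, a prolyl hydroxylase gene, was lower at 91.5 and 124 CPM against 242 and 268 CPM (log2 -1.40 [-2.38 to -0.56] and -1.11 [-1.62 to -0.62]). Elastic fibre genes had medians of 0.47 and 0.79 (5 WT and 5 KO read, 1 and 2 higher), and Mfap2, a microfibril gene, stood at 2126 and 1803 CPM against 1538 and 1361 CPM (log2 0.47 and 0.41). Of small leucine-rich proteoglycans 2 of 2 read in each library, Aspn and Bgn, were higher, beside the same shares of all genes. Contractile and matricellular genes had medians of 0.54 and 0.74 (4 WT and 6 KO read), with 1 and 3 higher and 0 lower.

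Imprinted growth genes were high in members. Of the list of 20 IGF and imprinted growth genes, 11 were read in WT, of which 10 lay above 0 and 7 were at least 2-fold higher, and 14 in KO, of which 13 lay above 0 and 11 were 2-fold higher, beside 2.97% of 1212 and 4.17% of 1294 genes read. Their medians of 1.70 and 1.87 stood beside -0.03 and -0.13 for all genes read, and lay above 0 under every setting run for the lists. Summed over the list, members gave 17849 [17134 to 18587] CPM in WT and 25787 [25260.4 to 26322] CPM in KO against 5466 and 6824 CPM in Crabp1-type cells and 1294 and 1295 CPM in macrophages. The genes of the list lie at several loci. Dlk1 and Meg3 lie in 1 imprinted region of chromosome 12, where Dlk1, which codes for a membrane protein that holds back fat cell differentiation, is expressed from the paternal copy and the noncoding Meg3 from the maternal copy. Dlk1 stood at 5945 CPM in WT members and 6989 CPM in KO members against 1199 and 1439 CPM in Crabp1-type cells (log2 2.31 [2.17 to 2.45] and 2.28 [2.17 to 2.39]), and Meg3 at 3361 and 6534 CPM against 1391 and 1726 CPM (log2 1.27 [1.11 to 1.43] and 1.92 [1.82 to 2.02]). RNA of genes expressed from each parental copy of this region was therefore higher in members. H19 and Igf2, another imprinted pair, stood at 1349 and 2046 CPM against 415 and 599 CPM (log2 1.70 [1.43 to 1.97] and 1.77 [1.59 to 1.95]) and 724 and 845 CPM against 213 and 277 CPM (log2 1.77 [1.39 to 2.14] and 1.61 [1.34 to 1.88]).

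Mest, a paternally expressed gene used as a mark of fetal mesoderm, stood at 1006 CPM in WT members and 1292 CPM in KO members against 124 and 157 CPM in Crabp1-type cells (log2 3.02 [2.63 to 3.42] and 3.04 [2.73 to 3.37]). Plagl1, which codes for a zinc finger regulator of other imprinted genes, stood at 473 and 1091 CPM against 70.5 and 100.4 CPM (log2 2.74 [2.19 to 3.298] and 3.44 [3.06 to 3.84]). Cdkn1c, which codes for the cyclin-dependent kinase inhibitor p57 and is expressed from the maternal copy, stood at 2911 and 3652 CPM against 899 and 1256 CPM (log2 1.70 [1.51 to 1.88] and 1.54 [1.41 to 1.67]). All 3 are thus among the genes highest in members in both libraries. Mest was seen in all members (thinned 82.6% WT and 84.7% KO) and in 6.12% and 23.5% of macrophages (thinned 3.09% and 5.88%). Dlk1 was also seen in all of them, thinned or not, and in 18.4% and 70.6% of macrophages (thinned 4.12% and 17.6%). The part of free RNA in the macrophage values was not tested.

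Not all of the list behaved alike, as 4 genes chosen after their values were seen show. Igf1, which codes for insulin-like growth factor 1, gave 34 UMIs against 9 (log2 4.46 [3.37 to 5.71]) in WT members and Crabp1-type cells and 148 UMIs against 24 (log2 3.52 [2.89 to 4.21]) in KO. Igfbp4, whose product binds IGFs, gave 43 UMIs against 17 (log2 3.88 [3.04 to 4.79]) and 186 UMIs against 27 (log2 3.68 [3.09 to 4.32]). Macrophages gave 196 WT and 28 KO UMIs of Igf1 and 420 and 56 of Igfbp4, and the part of free RNA was not tested. Peg3, an imprinted zinc finger gene, gave 66 UMIs against 312 (log2 0.30 [-0.10 to 0.69]) and 242 UMIs against 322 (log2 0.48 [0.24 to 0.73]). Igfbp5 was the 1 gene of the list that was lower in WT, with 9 UMIs against 202 (log2 -1.94 [-3.09 to -0.99]), and gave 78 UMIs against 157 (log2 -0.12 [-0.53 to 0.29]) in KO.

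Most genes read of the upper dermis and of hair follicle dermis stood lower in members. Of 6 genes of that list read in each library 4 were at least 2-fold lower in each, beside 5.86% and 5.26% of all genes read, and 1, Ptn, was higher, with medians of -2.59 and -2.18. Summed, the list went the other way because of Ptn, which gave 374 of 456 WT and 769 of 975 KO UMIs in members: 3475 and 2756 CPM in members against 2488 and 2550.4 CPM in Crabp1-type cells. Twist2, which codes for a basic helix-loop-helix factor of dermal progenitors, stood at 68.6 CPM in WT members and 130 CPM in KO members against 848 and 811 CPM in Crabp1-type cells (log2 -3.63 [-4.76 to -2.69] and -2.64 [-3.11 to -2.20]), and was seen in 21.7% and 39.0% of members (thinned 13.0% and 20.3%) and in 4.08% and 0% of macrophages (thinned 0% and 0%). Wif1, which codes for a secreted inhibitor of Wnt ligands, had 0 UMIs in WT members, which allows up to 22.9 CPM, against 205 CPM in Crabp1-type cells, at least 3.17 log2 units lower, and stood at 33.9 against 209.9 CPM in KO (log2 -2.63 [-3.62 to -1.78]). Penk, the gene of the enkephalin precursor, stood at 152 and 107 CPM against 617 and 756 CPM (log2 -2.02 [-2.74 to -1.37] and -2.82 [-3.33 to -2.34]). Trps1, a GATA-type factor gene of hair follicle mesenchyme, stood at 7.62 and 39.6 CPM against 135 and 131 CPM (log2 -4.14 [-9.46 to -1.63] and -1.72 [-2.66 to -0.90]). The agouti gene a, whose product acts on pigment cells from the dermal papilla, stood at 15.2 and 39.6 CPM against 155 and 154 CPM (log2 -3.35 [-6.41 to -1.47] and -1.96 [-2.88 to -1.14]).

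Transcription factor genes as a list also stood lower, with medians of -1.35 and -1.51 (10 WT and 11 KO read), 5 WT and 7 KO genes at least 2-fold lower and 2 and 1 higher, beside 5.86% and 5.26% of all genes read that were lower and 2.97% and 4.17% that were higher. Against Mfap5-type cells the list had medians of -0.12 and -0.08 (2 WT and 10 KO read). Besides Twist2 and Trps1, the list held Zeb2, which codes for a zinc finger factor of neural crest and mesenchyme, at 107 CPM in WT members and 153 CPM in KO members against 436 and 433 CPM in Crabp1-type cells (log2 -2.03 [-2.92 to -1.26] and -1.51 [-1.95 to -1.08]). Tcf4, a helix-loop-helix gene, stood at 129.6 and 223 CPM against 628 and 578 CPM (log2 -2.28 [-3.07 to -1.58] and -1.37 [-1.74 to -1.02]), and Prrx2, a homeobox gene of limb and skin mesenchyme, at 61.0 and 45.2 CPM against 206 and 144 CPM (log2 -1.76 [-2.996 to -0.75] and -1.68 [-2.54 to -0.90]). Nfib was the 1 factor gene higher in both, so the lower levels were not a feature of every factor. Outside the list, Mef2c, a MADS-box factor gene, stood at 15.2 and 50.9 CPM against 217 and 242 CPM (log2 -3.83 [-6.89 to -1.95] and -2.25 [-3.04 to -1.54]), and Bcl11b, a zinc finger gene of skin and T cells, at 22.9 and 14.1 CPM against 144 and 154 CPM (log2 -2.65 [-4.95 to -1.07] and -3.44 [-5.10 to -2.17]).

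The lower side further held Thy1, Crip1, Ppp1r14a and Cxcl14. Thy1, which codes for a surface protein by which many fibroblasts are sorted, stood at 76.2 CPM in WT members and 22.6 CPM in KO members against 317 and 279.8 CPM in Crabp1-type cells (log2 -2.06 [-3.14 to -1.15] and -3.63 [-4.86 to -2.62]). Crip1, the gene of a small LIM-domain protein, stood at 823 and 969 CPM against 2299 and 2316 CPM (log2 -1.48 [-1.78 to -1.20] and -1.26 [-1.43 to -1.09]). Ppp1r14a, which codes for an inhibitor of myosin phosphatase, stood at 15.2 and 31.1 CPM against 161 and 186 CPM (log2 -3.40 [-6.46 to -1.51] and -2.58 [-3.62 to -1.69]), and Cxcl14, a chemokine gene, at 183 and 124 CPM against 559 and 377 CPM (log2 -1.61 [-2.27 to -1.02] and -1.60 [-2.10 to -1.13]). No single list held all 4 of these genes. Smaller lists gave medians as follows: Wnt genes -0.59 and 0.44 (2 read in each, Sfrp2 and Wif1), BMP and TGF-beta genes -0.53 and -0.30 (4 WT and 3 KO), PDGF and FGF genes -1.77 and -0.89 (1 each), angiopoietin-like and C1q/TNF-related genes outside the rule -0.34 and -1.37 (2 and 1), chemokine and complement genes -1.13 and -0.67 (2 each), and adhesion and axon guidance genes -1.40 and -0.07 (2 and 3). Medians of extracellular proteases were 0.32 and 0.60 (4 WT and 6 KO read), of EMT genes 0.07 and 0.14 (14 WT and 15 KO), of glycolysis genes 0.19 and 0.03 (7 each), and of immediate-early and stress genes 0.20 and 0.53 (9 WT and 11 KO). The WT medians of the Wnt, BMP, protease and glycolysis lists and the KO medians of the adhesion and histone H3.3 lists changed sign in some alternatives, so no direction is given for them.

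Some genes with fewer UMIs fell outside the counts above but still differed widely, Pdgfrl in both libraries and Fmod and Tgfb2 in KO. Pdgfrl, which codes for a PDGF receptor-like protein, stood at 107 and 79.1 CPM against 5.23 and 16.7 CPM (log2 4.35 [2.68 to 6.41] and 2.24 [1.19 to 3.40]) in WT and KO members and Crabp1-type cells. Fmod, which codes for fibromodulin, a proteoglycan of tendon and fascia, gave 1 UMI in WT members, and in KO stood at 48.0 against 3.04 CPM (log2 3.98 [1.91 to 7.14]). Tgfb2, the gene of a growth factor that drives matrix synthesis, stood at 30.5 and 124 CPM against 20.9 and 18.3 CPM (log2 0.54 [-1.49 to 2.18] and 2.77 [1.82 to 3.83]). Hox genes, which mark position along the trunk, had none that was read singly, and summed to 297 [211 to 406] CPM in WT members (15 of 30 genes, led by Hoxc8) and 514 [442 to 595] CPM in KO members (21 of 30, led by Hoxc9), against 456 and 382 CPM in Crabp1-type cells and 10.03 and 15.3 CPM in macrophages. Hoxc8 stood at 68.6 and 105 CPM in WT and KO members and Hoxc9 at 30.5 and 122 CPM. Members of both embryos thus carried Hox RNA of the trunk. Of HIRA complex and histone H3.3 genes only H3f3a and H3f3b were read, with medians of -0.22 and -0.12: H3f3b stood at 2477 and 2156 CPM in WT and KO members and H3f3a at 1181 and 1218 CPM.

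Genes of G2 and M phase stood lower in members. Of 11 WT and 7 KO genes of the list read, 8 and 6 were at least 2-fold lower than in Crabp1-type cells, beside 5.86% of 1212 and 5.26% of 1294 genes read, with medians of -1.38 and -1.46. Summed, the list gave 1898 [1669 to 2149] CPM in WT and 1209.6 [1098 to 1329.8] CPM in KO members against 4859 and 3337 CPM in Crabp1-type cells, although 104 of 249 WT and 105 of 428 KO UMIs came from 1 cell each. Hmgb2, which codes for a chromatin protein abundant in dividing cells, stood at 648 and 483 CPM against 1722 and 1334 CPM (log2 -1.41 [-1.74 to -1.09] and -1.46 [-1.71 to -1.23]). Ube2c, Ccnb2 and Cks2, which act in mitosis, gave -1.80 [-2.73 to -1.0004] and -1.43 [-2.25 to -0.69], -1.52 [-2.76 to -0.50] and -1.55 [-2.42 to -0.77] and -1.38 [-2.003 to -0.82] and -1.501 [-1.97 to -1.06] log2 in WT and KO, from 99.1 and 50.9, 61.0 and 45.2 and 206 and 141 CPM in members against 345 and 137, 175 and 132 and 537 and 400 CPM. S phase genes summed to 1249.9 [1066 to 1457] CPM in WT and 848 [755 to 949] CPM in KO members against 1257 and 1335 CPM, and the medians over 3 genes were 0.37 and -0.71, the first of which turned negative when single cells weighed equally and under 3 other settings. Whether members divide less was not measured.

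Against Mfap5-type cells, the group next to them in B, members differed by fewer genes. In WT 7 (1.79%) of 391 genes were at least 2-fold higher and 15 (3.84%) lower, with a median of 0.13, and in KO 9 (0.771%) of 1167 were higher and 33 (2.83%) lower, with a median of -0.08. Of 389 genes read in both libraries 0 (0%) were higher and 3 (0.771%) lower in each, and 266 had the same sign. Without the cells rich in other cells' markers, 0 of the 7 higher WT genes (5 no longer read) and 7 of the 15 lower ones (4 no longer read) were called again. The 3 genes lower in both were S100a6, Crip1 and Basp1. S100a6, which codes for a calcium-binding protein, stood at 274 CPM in WT members and 639 CPM in KO members against 1181 and 1653 CPM in Mfap5-type cells (log2 -2.11 [-2.67 to -1.58] and -1.37 [-1.59 to -1.16]). Crip1 stood at 823 and 969 CPM against 2897 and 2059 CPM (log2 -1.82 [-2.14 to -1.51] and -1.09 [-1.27 to -0.91]), so it was lower in members than in either neighbor. Basp1, which codes for a membrane-bound protein of growing cell processes, stood at 252 and 319 CPM against 565 and 665 CPM (log2 -1.17 [-1.80 to -0.56] and -1.06 [-1.38 to -0.75]). Its relative Marcks stood at 640.2 and 701 CPM against 1217 and 1255 CPM (log2 -0.93 [-1.32 to -0.54] and -0.84 [-1.06 to -0.63]).

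More S100 genes followed: S100a10 stood at 777 and 984 CPM against 2050 and 1825 CPM (log2 -1.40 [-1.74 to -1.07] and -0.89 [-1.07 to -0.71]) in WT and KO members and Mfap5-type cells, and S100a11 at 1158 and 1376 CPM against 2832 and 2209.9 CPM (log2 -1.29 [-1.57 to -1.02] and -0.68 [-0.84 to -0.53]). Both genes code for S100 proteins that bind annexins. Tuba1a, an alpha-tubulin gene, stood at 755 and 899 CPM against 1775 and 1479 CPM (log2 -1.23 [-1.59 to -0.89] and -0.72 [-0.91 to -0.53]), and Itm2a, higher in members than in Crabp1-type cells, was lower than in Mfap5-type cells at 2652 and 3338 CPM against 6483 and 6144 CPM (log2 -1.29 [-1.47 to -1.11] and -0.88 [-0.98 to -0.78]). On the higher side, no gene read in both libraries was 2-fold in each. The genes called in WT included 2 of the adipocyte list. Of Bgn, Mif and Npm1, only Npm1 reached 2-fold, in WT. Bgn stood at 686 and 749 CPM against 355 and 391 CPM (log2 0.95 [0.43 to 1.48] and 0.94 [0.67 to 1.21]). Mif, which codes for a cytokine, stood at 899 and 799.8 CPM against 456 and 537 CPM (log2 0.98 [0.53 to 1.44] and 0.57 [0.33 to 0.82]) and Npm1, a nucleolar protein gene, at 1814 and 1277 CPM against 905 and 953 CPM (log2 1.002 [0.68 to 1.33] and 0.42 [0.24 to 0.61]). Of the ribosomal protein genes 4 are named here on this side, none of them 2-fold: Rpl36 gave log2 0.43 and 0.35, Rps16 0.46 and 0.34, Rpl26 0.54 and 0.33 and Rplp0 0.40 and 0.32, from 4055 and 3880.5, 3864 and 3725, 3909.7 and 3847 and 4306 and 4276 CPM in members.

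Of the 21 genes higher than in Crabp1-type cells in both libraries, 16 of 19 read in WT and 21 of 21 in KO lay within 2-fold of Mfap5-type cells, with 3 and 0 lower and 0 and 0 higher. Of the 34 lower genes 4 in WT and 15 in KO were read there, of which 3 and 12 lay within 2-fold and 1 and 3 were lower. Aspn stood at 898 and 905 CPM there (log2 0.28 [-0.08 to 0.64] and 0.04 [-0.16 to 0.25]), Postn at 1369 and 1396 CPM (-0.49 [-0.82 to -0.16] and 0.15 [-0.01 to 0.31]), and Mest at 1419.8 and 1390.1 CPM (-0.50 [-0.83 to -0.17] and -0.11 [-0.28 to 0.07]). Ptn was higher in Mfap5-type cells at 4389.7 and 3428 CPM (-0.62 [-0.81 to -0.43] and -0.66 [-0.78 to -0.53]), as was Dlk1 at 9569 and 9199 CPM (-0.69 [-0.82 to -0.56] and -0.40 [-0.47 to -0.33]). Over the list of IGF and imprinted genes, 0 of 10 read in WT and 4 of 17 in KO lay above 0, with medians of -0.63 and -0.32, and thinning moved the KO median to 0.04. Genes of the lower dermis and fascia were in part lower in members: in WT 0 of 2 and in KO 6 of 9 genes read were at least 2-fold lower, beside 3.84% and 2.83% of all genes read, with medians of -0.54 and -1.52. Among them Fbn1, the gene of the microfibril protein fibrillin, stood at 83.8 and 138 CPM against 464 and 396 CPM (log2 -2.47 [-3.54 to -1.53] and -1.52 [-1.998 to -1.06]), and Gsn, the gene of gelsolin, at 229 and 107 CPM against 413 and 313 CPM (log2 -0.85 [-1.54 to -0.19] and -1.54 [-2.09 to -1.03]). Fbn1 thus stood lower in members of both libraries, though RNA of both genes was present. Against Crabp1-type cells 2 of 3 WT and 1 of 3 KO genes of that list were higher, beside 2.97% and 4.17% of all genes read (medians 1.43 and 0.68), with Dpt, which codes for the matrix protein dermatopontin, at 526 and 356 CPM against 195 and 222 CPM (log2 1.43 [1.001 to 1.86] and 0.68 [0.33 to 1.04]). Of G2 and M phase genes only 1 was read in WT (-0.51) and 3 in KO (median -0.79) against Mfap5-type cells. The KO value turned positive after thinning.

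KO and WT members were compared last, with 59 cells on 1 side and 23 on the other and 1 embryo each. Leaving out sex-linked genes and genes of the rule, 27 (4.12%) of 655 genes read were at least 2-fold higher and 12 (1.83%) at least 2-fold lower in KO members, with a median log2 ratio of -0.08. Of the 27 higher genes 16 carry symbols of predicted genes or pseudogenes, and of the 12 lower ones 0. The share of such symbols among all 655 genes read is not given here. Many of the higher genes lay on the same side in other cells: of those read in each type, 20 of 21 in Crabp1-type cells, 23 of 25 in Mfap5-type cells and 16 of 16 in macrophages, with 9, 9 and 7 of them at least 2-fold higher. Among all genes read in members and in each of these types, 300 of 638, 332 of 644 and 278 of 513 lay above 0. At least 2-fold higher were 9, 14 and 12 of them, and at least 2-fold lower 0, 1 and 7. For the lower genes the counts on the same side were 5 of 10, 4 of 10 and 4 of 6, with 0, 1 and 0 at least 2-fold lower. With the 9 cells rich in other cells' RNA left out, 15 genes were higher, 13 of them shared with the 27, and 0 of 510 genes read were 2-fold lower, though 9 of the 12 were no longer read. The plot of KO against WT sets these values side by side.

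**Figure D3:**
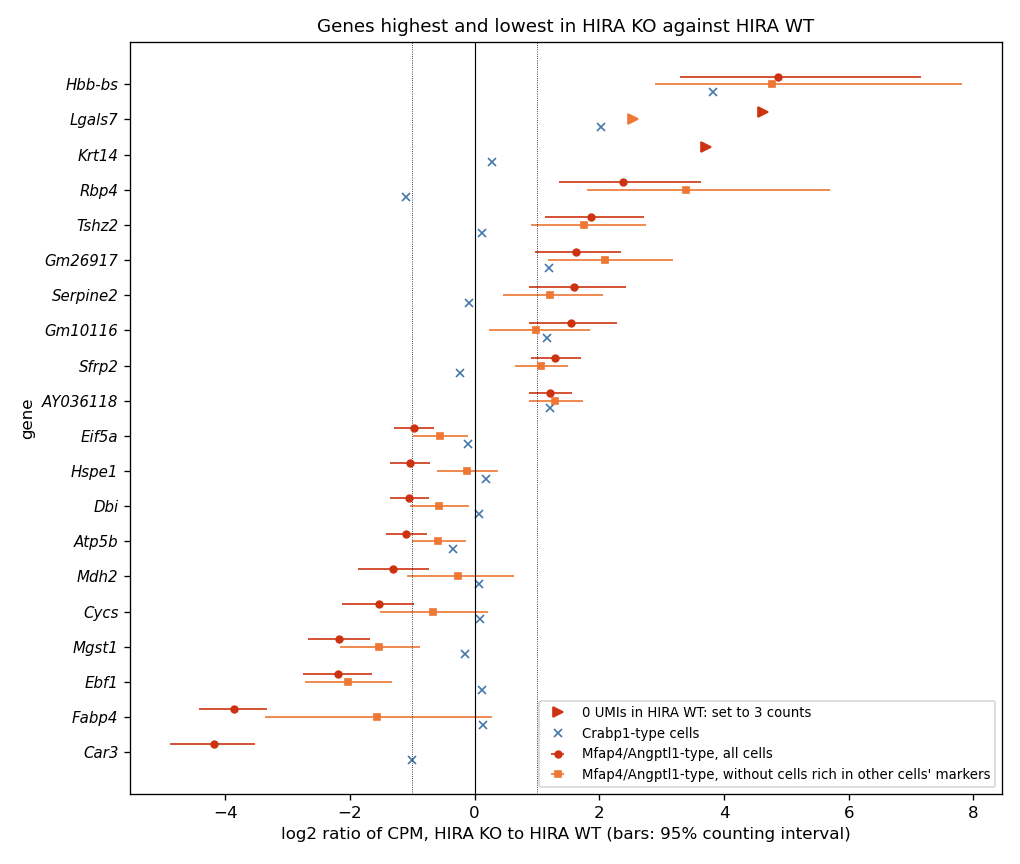
Log2 ratio of CPM in KO to WT (x) for the 10 highest and 10 lowest genes by the chosen measure (y), in all members (red circles, bars for 95% counting intervals), in members without the 9 cells rich in other cells' markers (orange squares, shown with at least 10 UMIs, triangles for 0 UMIs in WT set to 3 counts) and in Crabp1-type cells (blue crosses). Ebf1 lies at -2.19 in members and near 0 in Crabp1-type cells.

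Of the genes that differed most, some had most UMIs in 1 cell and some differed in other cell types too. Car3 and Fabp4, which belong to adipocytes, stood at 1120.3 CPM in WT members and 62.2 CPM in KO members (log2 -4.17 [-4.89 to -3.52]) and 1433 CPM in WT members and 98.9 CPM in KO members (log2 -3.86 [-4.42 to -3.33]), but 144 of 147 and 147 of 188 WT UMIs lay in the 1 deep cell. Without the 9 cells Car3 had 0 WT and 2 KO UMIs, and Fabp4 gave -1.57 [-3.36 to 0.28] from 72.1 and 24.3 CPM. Krt14, a basal keratin gene, had 0 UMIs in WT members, which allows up to 22.9 CPM, and 299.6 CPM in KO members, at least 3.71 log2 units higher, with 95 of 106 UMIs in 1 cell and 31.3 CPM without the 9 cells. Lgals7, which codes for an epidermal galectin, had 0 UMIs in WT and 562 CPM in KO members, at least 4.62 log2 units higher, with 123 of 199 UMIs in 1 cell and 209 CPM without the 9 cells, and was higher in KO in macrophages too (21.7 and 260.4 CPM). Hbb-bs, a globin gene, stood at 22.9 CPM in WT members and 667 CPM in KO members (log2 4.87 [3.302 to 7.15]) and at 50.9 and 721 CPM in Crabp1-type cells and 48.5 and 781 CPM in macrophages. RNA of both genes was thus higher in KO in macrophages as well, and the part of free RNA in the members' values was not tested. AY036118, Gm26917 and Gm10116 gave 1.21 [0.88 to 1.56], 1.63 [0.97 to 2.36] and 1.54 [0.87 to 2.29] in members, from 640.2 and 1481, 160 and 495 and 152 and 444 CPM, and 1.21, 1.19 and 1.16 in Crabp1-type cells. These RNAs thus gave higher KO values in both of these types.

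Ebf1 was lower in KO members with or without the 9 cells. It codes for early B-cell factor 1, a transcription factor of fat, bone and lymphoid precursors, and stood at 594 CPM in WT members and 130 CPM in KO members (log2 -2.19 [-2.75 to -1.65]). It was seen in 19 of 23 WT members (82.6% [61.2 to 95.05]) and 17 of 59 KO members (28.8% [17.8 to 42.1]), in 60.9% and 18.6% after thinning, and in 0 of 98 and 0 of 17 macrophages. In Crabp1-type cells it stood at 199.9 and 216 CPM (log2 0.11 [-0.23 to 0.45]) and in Mfap5-type cells at 659 and 305 CPM (-1.11 [-1.49 to -0.72]). Leaving out the 9 cells gave 481 and 118 CPM (-2.02 [-2.73 to -1.33]), with under 100 UMIs in all. Mgst1, which codes for a microsomal glutathione transferase, stood at 724 CPM in WT members and 161 CPM in KO members (log2 -2.17 [-2.67 to -1.68]), with -1.53 [-2.16 to -0.88] without the 9 cells and -0.15 [-0.48 to 0.17] in Crabp1-type cells.

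Other lower genes lay closer to WT without the 9 cells. Cycs, the gene of cytochrome c, stood at 419 CPM in WT members and 144 CPM in KO members (log2 -1.54 [-2.12 to -0.96]), with 36 of 55 WT UMIs in 1 cell, and at -0.67 [-1.51 to 0.22] without the 9 cells. Of 3 more genes, Mdh2 -1.30 [-1.86 to -0.74] from 404 and 164 CPM, Atp5b -1.10 [-1.43 to -0.76] from 1052 and 492 CPM and Hspe1 -1.03 [-1.35 to -0.72] from 1128 and 551 CPM became -0.26 [-1.08 to 0.63], -0.58 [-1.01 to -0.13] and -0.12 [-0.61 to 0.38]. Dbi, whose product binds acyl-CoA, and the translation factor gene Eif5a stood at 1174 CPM in WT members and 568 CPM in KO members (log2 -1.05 [-1.36 to -0.73]) and 1052 CPM in WT members and 537 CPM in KO members (log2 -0.97 [-1.29 to -0.64]), and at -0.57 [-1.04 to -0.09] and -0.55 [-0.99 to -0.10] without the 9 cells. None of these 6 genes was 2-fold apart without them. Prrx1, a homeobox marker of mesenchyme, stood at 229 CPM in WT members and 67.8 CPM in KO members (log2 -1.75 [-2.59 to -0.93]), under 100 UMIs.

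On the higher side, 6 genes are given with their log2 ratios of KO to WT in Crabp1-type cells. The intervals of the 2 types overlapped for Tshz2 and Thbs2, and the difference between the types was not tested. Sfrp2 stood at 465 CPM in WT members and 1136 CPM in KO members (log2 1.29 [0.90 to 1.70]), against -0.23 [-0.71 to 0.25] in Crabp1-type cells, and at 1.06 [0.65 to 1.499] without the 9 cells. Tshz2, which codes for a teashirt-type zinc finger factor, stood at 122 CPM in WT members and 447 CPM in KO members (log2 1.87 [1.13 to 2.71]), against 0.13 [-0.99 to 1.24], and at 1.76 [0.91 to 2.74] without them. It was seen in 43.5% of WT and 84.7% of KO members (thinned 30.4% and 55.9%) and in 1.02% and 5.88% of macrophages (thinned 0% and 5.88%). Serpine2, which codes for the protease inhibitor nexin-1, stood at 129.6 CPM in WT members and 393 CPM in KO members (log2 1.60 [0.87 to 2.42]), against -0.09 [-0.91 to 0.72], and at 1.21 [0.46 to 2.06] without them. Rbp4, the gene of the plasma retinol carrier, stood at 61.0 CPM in WT members and 317 CPM in KO members (log2 2.38 [1.35 to 3.62]), against -1.10 [-3.23 to 0.69], and at 3.39 [1.81 to 5.69] without the 9 cells, which left 3 WT and 109 KO UMIs. Of its 112 KO UMIs 57 lay in 1 cell, the median KO member had 0, and the log2 ratio was 1.11 after thinning. Thbs2, a thrombospondin gene of the fibroblast matrix, stood at 152 CPM in WT members and 336 CPM in KO members (log2 1.14 [0.45 to 1.90]), against 0.31 [-0.44 to 1.07], and S100a6 at 274 CPM in WT members and 639 CPM in KO members (log2 1.22 [0.71 to 1.77]), against 0.39 [0.16 to 0.61]. The first 3 genes and Thbs2 were still over 2-fold higher without the 9 cells, and with 1 embryo per genotype their cause was not tested.

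The imprinted genes, already high in members, were mostly higher in KO than in WT members by less than 2-fold. All 13 of 13 genes of the list read lay above 0, with a median of 0.60 beside -0.08 for all genes, and only Plagl1 reached 2-fold, at 473 CPM in WT members and 1091 CPM in KO members (log2 1.21 [0.82 to 1.62]). Meg3 stood at 3361 CPM in WT members and 6534 CPM in KO members (log2 0.96 [0.81 to 1.11]), H19 at 1349 CPM in WT members and 2046 CPM in KO members (log2 0.60 [0.36 to 0.85]), Cdkn1c at 2911 CPM in WT members and 3652 CPM in KO members (log2 0.33 [0.16 to 0.50]), Mest at 1006 CPM in WT members and 1292 CPM in KO members (log2 0.36 [0.08 to 0.65]), and Dlk1 at 5945 CPM in WT members and 6989 CPM in KO members (log2 0.23 [0.12 to 0.35]). Without the 9 cells 12 of 13 lay above 0 with a median of 0.38, and Meg3 gave 0.66 [0.51 to 0.82] and Dlk1 0.04 [-0.09 to 0.16]. In Crabp1-type cells 8 of 11 lay above 0, with a median of 0.31. In Mfap5-type cells the list summed to 29228 CPM in WT and 29619.8 CPM in KO, beside 17849 and 25787 CPM in members and 23649 and 29539 CPM in members without the 9 cells. Fibrillar collagen genes lay above 0 in 3 of 3, with a median of 0.52 in members and 0.25 in Crabp1-type cells, and the members' median was 0.27 without the 9 cells. Summed, the list gave 5312 and 7439 CPM in all members and 7475 and 8414 CPM without the 9 cells. Col1a2 stood at 4603 CPM in WT members and 6158 CPM in KO members (log2 0.42 [0.29 to 0.55]). Elastic fibre genes (median 0.26) and glycolysis genes (-0.19) changed sign in some alternatives.

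Single members varied in these genes. Dlk1 ran from 949 to 20234 CPM with a median of 5330.2 in WT members and from 179 to 15970.1 CPM with a median of 7828 in KO members, and Cdkn1c from 1008 to 11588 CPM with a median of 3146 and from 119 to 10861 CPM with a median of 3698. Each member of both libraries thus held RNA of these 2 genes. Aspn ran from 0 to 5679.8 CPM with a median of 1176 in WT and from 0 to 4232 CPM with a median of 714 in KO, so some members had none. Plagl1 ran from 0 to 2236 CPM with a median of 372 and from 0 to 3649.6 CPM with a median of 1175, which put the KO median well above that of WT, as in the summed cells. Meg3 did likewise, from 286 to 13418 CPM with a median of 3088 in WT and from 0 to 23888 CPM with a median of 6687 in KO. The median for Ebf1 was 357 CPM in WT and 0 in KO members. Twist2 had a median of 0 in members of both libraries and of 741 and 801 CPM in Crabp1-type cells.

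The genes named most here lie on several chromosomes (GRCm38, GENCODE M21). Mfap4 (ENSMUSG00000042436) lies on chromosome 11 at 61485431-61488900, Angptl1 (ENSMUSG00000033544) on chromosome 1 at 156838562-156861078 and Plagl1 (ENSMUSG00000019817) on chromosome 10 at 13060504-13131694, all on the plus strand. Aspn (ENSMUSG00000021388) at 49544443-49567565 and Ogn (ENSMUSG00000021390) at 49608046-49624501 lie on the plus strand of chromosome 13. Dlk1 (ENSMUSG00000040856) at 109452823-109463336 and Meg3 (ENSMUSG00000021268) at 109541001-109571726 lie on the plus strand of chromosome 12. Ebf1 (ENSMUSG00000057098) lies on chromosome 11 at 44617317-45008091, plus strand.

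These values come from 1 embryo per genotype, of different sex, so no difference between KO and WT was tested, and sex, embryo and genotype cannot be told apart. The WT side rests on 23 cells, of which 1 held 19.3% of the UMIs. The members were chosen by RNA counts, with no protein, position or lineage measured, and where they lay in the skin is not known from these data. A gene with few UMIs may be missed, and for most genes the part of free RNA was not tested. Hira loss was not measured in members, so their genotype is that of the embryo.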

How the data were processed

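Single-cell RNA sequencing was read for 1 WT and 1 KO library of tdTomato-positive E15.5 trunk skin cells. The authors deposited UMI counts per gene and cell barcode, made with Cell Ranger 2.2.0 on mm10, for 1546 WT and 846 KO barcodes and 28000 genes. The libraries held 7073939 and 5049514 UMIs, with medians of 3961 and 5152.5 per barcode. Barcodes with under 100 genes (4 WT, 6 KO) or over 10% mitochondrial UMIs (3 WT, 12 KO) were left out. Members and gene lists were chosen with earlier results of these data known. Macrophages had at least 10 UMIs of C1qa, C1qb and C1qc, and pigment cells over 10 of Dct, Pmel and Mlana, both with under 20 matrix UMIs.

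Counts were summed over the cells of a group and scaled to CPM of all UMIs of that group. A gene was read with at least 100 UMIs over the 2 groups compared, and counted with at least a 2-fold difference. Intervals are exact 95% intervals (Poisson for CPM, Clopper-Pearson for shares, conditional binomial for ratios). A value of 0 was given the limit of 3 counts. No test was run, since each genotype had 1 library. At the summed depth 3 UMIs equal 22.9 CPM in WT and 8.48 CPM in KO members. Genes were named by a rule: all genes of the member rule and the markers, the 12 highest and 12 lowest against Crabp1-type cells, 8 and 8 against Mfap5-type cells, and 10 and 10 for KO against WT, ranked by the interval bound nearest 0 (for the first 2, the smaller of both libraries), and in each of 24 lists up to 4 genes with the most UMIs and those 2-fold in both libraries. Marker lists numbered 15. Some results of these lists and of this rule are not reported here.

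Alternatives were other scalings (median of ratios; totals without mitochondrial, ribosomal and haemoglobin genes; mean over cells), 30 UMIs as the minimum, a stricter rule (B at least 2 times A and at least 5), a minimum of 500 genes, no limit on Mfap5 and Clec3b, 40 matrix UMIs with 10 of Lum and Dcn, and cells thinned to 2000 UMIs (seed 0), used for the rule only, with levels from full counts. Doublets were kept, and leaving out the 5% of cells with the highest Scrublet scores, ties included, was an alternative. Leaving out mesenchymal cells with at least 10 UMIs of another cell type's list was chosen after the data were seen. The log2 ratios and their intervals were tested on simulated summed counts with Poisson error, which hold no spread between cells. The choice of cells, thinning and gene lists were not tested in this way. Coordinates came from GENCODE M21. Tools were Python 3.11.15, numpy 2.4.6, scipy 1.17.1, pandas 2.3.3, scanpy 1.11.5 and matplotlib 3.10.9.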

Additional observations from a re-analysis of the deposited data

Results flagged for a closer look

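Genes were marked when the 2 libraries gave log2 ratios of opposite sign with both intervals off 0 and a 2-fold difference in at least 1 of them. Ebf1 in members against Crabp1-type cells gave 1.57 in WT and -0.73 in KO, and the difference was not tested. Without the cells rich in other cells' markers it gave 1.46 and -0.73. Cycs against Crabp1-type cells gave 0.53 in WT and -1.10 in KO, and -0.49 and -1.22 without those cells, and the difference was not tested. Mgst1 against Mfap5-type cells gave 1.06 in WT and -0.99 in KO, and 0.39 and -0.58 without those cells, and the difference was not tested.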

How the results depend on the processing

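No paired analysis was possible because each genotype had 1 library, and leaving out replicates was not possible for the same reason. The share of members, 1.49% in WT and 7.13% in KO, was larger in KO under every setting. It became 3.31% and 15.6% with no limit on Mfap5 and Clec3b, and 5.07% in KO with at least 40 matrix UMIs; a looser or tighter rule takes more or fewer cells by construction. A minimum of 500 genes took 23 of 1534 WT cells, and the other settings gave 1.10% to 1.45% in WT and 6.04% to 7.83% in KO.

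Against Crabp1-type cells the 36 higher and 71 lower WT genes became 171 and 350 with 30 UMIs as the minimum, and the lower ones 115 under the stricter rule. In KO 54 and 68 became 251 and 276 with 30 UMIs, and the lower ones 36 after thinning. In both libraries 21 and 34 became 58 and 98 with 30 UMIs, and the lower ones 18 after thinning. The median of ratios shifted the KO median by 0.13, to 63 higher and 50 lower genes. Of 36 WT and 54 KO higher genes, 26 and 46 were shared without the cells rich in other cells' markers (6 and 6 no longer read), 23 and 45 after thinning (7 and 6 no longer read) and 36 and 54 under the median of ratios. Of 71 and 68 lower genes, 50 and 54 were shared without those cells (11 and 11 no longer read), 31 and 27 after thinning (26 and 23 no longer read) and 64 and 50 under the median of ratios. Of the named genes at least 2-fold, 45 of 45 in WT and 47 of 49 in KO were still so under it, and 40 of 45 and 40 of 49 after thinning. The medians of the imprinted, transcription factor, G2 and M phase and upper dermis lists had the same sign under all settings.

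Against Mfap5-type cells the 7 higher WT genes became 4 under the median of ratios, 12 with totals without mitochondrial, ribosomal and haemoglobin genes, 60 with 30 UMIs, 1 under the stricter rule, 2 after thinning and 1 without the cells rich in other cells' markers. None of the 7 was among the genes called under the last 3 settings (4, 6 and 5 of them no longer read), and of the 15 lower ones 5, 4 and 7 were. After thinning 0 of the 9 higher KO genes were called (8 no longer read). The 15 lower ones became 88, 6, 6 and 9 with the last 4. In KO the 9 higher genes became 14 with the reduced totals and 77 with 30 UMIs, and the 33 lower ones 176. In both libraries 0 higher became 1 with the reduced totals, the mean over cells, the stricter rule and without those cells, and 2 with 30 UMIs, and 3 lower became 1 with the reduced totals and 23 with 30 UMIs. The WT median shifted by -0.13 under the median of ratios (4 higher, 19 lower) and by 0.11 with the reduced totals (12 and 12). The KO split was 14 and 27 with the reduced totals. Of the named WT genes at least 2-fold, 5 of 15 were still so under the stricter rule and after thinning, and 6 of 15 without those cells.

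For KO against WT members the number of higher genes went from 27 to 154 with 30 UMIs, 17 under the stricter rule, 21 after thinning and 15 without those cells. The last 3 settings shared 15, 13 and 13 of the 27 (3, 4 and 3 no longer read). The number of lower genes went from 12 to 114, 2, 3 and 0, and the last 3 settings shared 0, 2 and 0 of the 12 (9, 6 and 9 no longer read). The split was 35 and 9 under the median of ratios. Of the named genes at least 2-fold, 12 of 20 were still so under the stricter rule and 12 of 21 after thinning. The tally was 13 of 20 without those cells and 14 of 22 with the mean over cells. With 30 UMIs more genes are read by construction; for the other settings the cause was not tested.

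Some genes reversed. Against Crabp1-type cells Car3 in WT became -1.56 under the stricter rule and Hspe1 in WT -0.09 after thinning. In KO Lgals7 became -0.07 without those cells, and Krt14 -0.04 under the stricter rule, -0.92 after thinning and -0.15 without those cells. Against Mfap5-type cells in KO, Lgals7 became -0.33, -0.59 and -0.29 under these 3 settings, Krt14 -0.41 after thinning and Ube2c 0.05 after thinning. Beyond the few cells that carried most UMIs of Car3, Lgals7 and Krt14, the cause was not tested. Depth limits WT most: 391 genes were read there against Mfap5-type cells and 1167 in KO.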
